A study of Homo sapiens with 8 samples.

Results

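The 4 ERBB receptor genes EGFR, ERBB2, ERBB3 and ERBB4 and the receptor inhibitor genes LRIG1 and ERRFI1 were followed across 8 expression arrays of human lung cancer cells. They are 6 of the 18244 genes that the arrays measured, and 22 of the 45278 probe sets annotated to a single gene symbol. Each gene was read from its probe set with the highest mean over the 8 arrays, and EGFR, ERBB2 and ERBB3 also from all their probe sets. The arrays held 1 sample for each combination of line (A549 or HCC827), culture (2D or 3D) and treatment (control or gefitinib), so no condition had a replicate. A549 is labelled as lacking an activating EGFR mutation and HCC827 as carrying one. The 2D cells grew for 7 days from 200000 cells on a 21 cm² dish, and the 3D cells, 100000 at seeding, grew 14 days in a scaffold of collagen. Treated cultures received gefitinib, which blocks the EGFR kinase, at 1 µM. In 3D it was present for the last 3 days, from day 11. The protocol mentions a start on day 4 under the heading of 3D as well. It was taken to mean 2D, for which no duration of treatment is given. Controls received no inhibitor. The 3D samples were cut up frozen, lysed with beads and extracted with a micro kit, and a mini kit served the 2D samples, so culture and RNA preparation cannot be told apart.

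ERBB receptors are tyrosine kinases of the cell surface that pair with each other when a ligand binds and then signal through the RAS to ERK and PI3K to AKT cascades. EGFR and ERBB4 bind ligands and have active kinases, ERBB2 has no known ligand of its own and serves as the preferred partner, and ERBB3 has a weak kinase and couples the pair to PI3K. LRIG1 is a transmembrane protein that promotes receptor degradation. ERRFI1, also called MIG6, is a cytoplasmic protein that binds and blocks the ERBB kinase domain, and its gene is switched on by ERK signalling as a feedback. In lung adenocarcinoma, activating EGFR mutations mark tumours that respond to gefitinib.

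Values are log2 signals from robust multi-array averaging (RMA), so a difference of 1 is a doubling of signal. The number of arrays limits the precision. A gene was tested if it lay above the array median, which ran from 7.27 to 7.34, on at least 2 arrays. This kept 5 of the 6 genes and 11926 of 18244 genes in all. A linear model (limma) was fitted over all tested genes, and a difference was called at an adjusted p (Benjamini-Hochberg over all tested genes) under 0.05. With 1 array per condition, the model's error is how far the gefitinib difference changes between cultures within a line, on 2 residual degrees of freedom. Nothing in the labels shows more than 1 culture per condition, so the p-values measure only the spread between these arrays.

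Before any result, the labels of the HCC827 2D arrays need care. Of 15 genes known to be switched on by ERK signalling, 14 were higher in the HCC827 2D array labelled gefitinib than in the one labelled control (median difference 1.21), and 14 of 15 were lower with gefitinib in HCC827 3D (median -1.31). In A549 the same medians were -0.18 in 2D and -0.04 in 3D. The list was chosen with earlier results of these data known. Over all tested genes the medians were -0.05 in HCC827 2D, -0.11 in HCC827 3D, 0.04 in A549 2D and 0.03 in A549 3D. Both HCC827 2D arrays are therefore called by their labels. Line calls in 3D, culture calls in A549 and gefitinib calls in HCC827 are also given without them. Differences between lines and between cultures average the control and gefitinib arrays, so exchanging these 2 labels would leave those differences as they are, but the error term holds the opposition. Of 8 epithelial markers, 8 were above the array median on at least 2 arrays, and so were 2 of 8 fibroblast, 2 of 6 endothelial and 3 of 6 leukocyte markers. RNA integrity differed with culture: the 3' probe set of actin exceeded the 5' one by 2.10 ± 0.47 in 3D (SD, n = 4) and by -0.10 ± 0.04 in 2D (n = 4), 2.19 apart (p = 0.0286 in a two-sided exact permutation test, the lowest value possible with 70 splits). The same measure of GAPDH was 0.91 ± 0.48 in 3D and -0.02 ± 0.02 in 2D.

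Promoters are shown for the 3 genes that carry the main results below: EGFR for the lines, ERBB2 for the cultures and ERRFI1 for gefitinib. Each is the 250 bases before the gene's start in RefSeq (GRCh38.p14), 5' to 3' on the gene's strand, and a RefSeq promoter was matched for 5 of the 6 genes. The EGFR sequence is chr7:55018767-55019016 on the plus strand. The ERBB2 sequence is chr17:39687844-39688093 on the plus strand. The ERRFI1 sequence is chr1:8026310-8026559 on the minus strand. Capitals mark the motifs found on either strand.
EGFR: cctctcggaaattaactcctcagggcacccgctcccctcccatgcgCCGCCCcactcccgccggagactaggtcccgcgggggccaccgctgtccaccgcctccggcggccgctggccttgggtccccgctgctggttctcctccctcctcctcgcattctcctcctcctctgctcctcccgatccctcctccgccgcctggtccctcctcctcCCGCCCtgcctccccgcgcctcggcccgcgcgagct
ERBB2: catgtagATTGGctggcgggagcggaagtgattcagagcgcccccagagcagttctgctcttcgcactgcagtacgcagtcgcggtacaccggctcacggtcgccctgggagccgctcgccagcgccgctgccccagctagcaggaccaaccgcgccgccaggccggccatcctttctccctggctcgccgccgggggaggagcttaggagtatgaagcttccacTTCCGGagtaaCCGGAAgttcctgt
ERRFI1: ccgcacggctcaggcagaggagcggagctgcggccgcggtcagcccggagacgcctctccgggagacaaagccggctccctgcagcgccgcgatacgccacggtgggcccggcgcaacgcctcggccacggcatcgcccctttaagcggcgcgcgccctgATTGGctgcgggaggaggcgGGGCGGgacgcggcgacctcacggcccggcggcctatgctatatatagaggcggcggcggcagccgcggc
The motifs searched were the GC box GGGCGG, the TATA box TATAAA, the CCAAT box CCAAT, the FOXO core GTAAACA and the ETS core CCGGAA, which do not overlap in these sequences. The EGFR promoter held 2 GC boxes and no other motif of the 5. The stretch before the RefSeq start of ERBB2 held 1 CCAAT box and 2 ETS cores, both ETS cores close to its end. The ERRFI1 promoter held 1 GC box and 1 CCAAT box. Of 35114 promoters of the same length, 42.6% held a GC box, 32.0% a CCAAT box, 14.5% an ETS core, 10.7% a TATA box and 3.0% a FOXO core. All 3 were rich in G and C, at 73.6% for EGFR, 65.6% for ERBB2 and 75.2% for ERRFI1, against a median of 58.0%. The arrays measured RNA and not binding, so these matches describe the sequence alone. The start that the measured RNA of each gene used was not determined, so these stretches need not be the promoters in use.

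**Figure D1:**
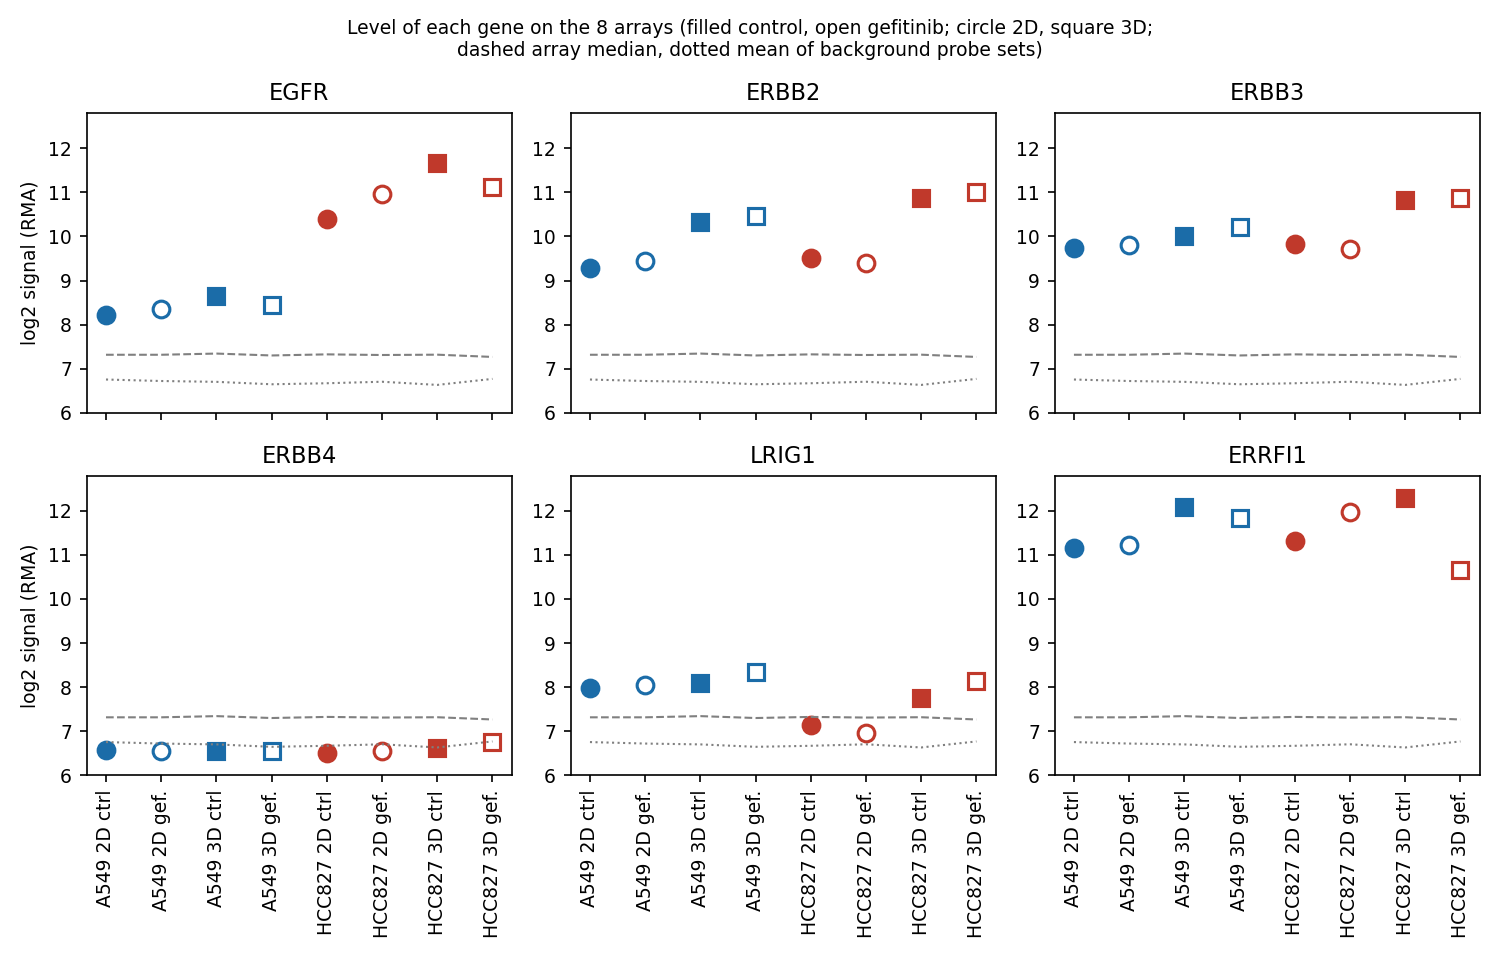
Log2 signal of the chosen probe set of each of the 6 genes on the 8 arrays (blue A549, red HCC827, circles 2D, squares 3D, filled control, open gefitinib). The dashed line is the array median and the dotted line the mean of the background probe sets. EGFR lies from 8.21 to 8.66 in A549 and from 10.40 to 11.66 in HCC827, and ERBB4 lies below the array median on every array.

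The first question was which of the 6 genes differ between the lines. EGFR was higher in HCC827 than in A549 by 2.62 ± 0.21 (SE; adjusted p = 0.00178), a 6.14-fold difference in signal. ERBB3 was higher in HCC827 by 0.37 ± 0.09 (0.0299), and LRIG1 was lower, at -0.61 ± 0.12 (0.0172). The ERBB3 call was lost once its probe sets were averaged (0.23, adjusted p = 0.0570) and in the additive model (0.116). ERBB2 stood at 0.31 ± 0.10 (0.0548) and ERRFI1 at -0.01 ± 0.40 (0.981). Thus 3 of 5 tested genes were called, beside 48.1% of all tested genes, a share against which the count itself does not stand out. With the mean of a gene's probe sets, EGFR stood at 1.41 and LRIG1 at -0.38, both still called (0.00253 and 0.0304).

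In A549, EGFR was at 8.21 in the 2D control, 8.36 in 2D with gefitinib, 8.66 in the 3D control and 8.43 in 3D with gefitinib. In HCC827, EGFR was at 10.40 in the 2D array labelled control, 10.96 in the 2D array labelled gefitinib, 11.66 in the 3D control and 11.12 in 3D with gefitinib. All 4 HCC827 arrays lay above all 4 A549 arrays, which was so for 14.4% of tested genes. The mean of each pair rose from A549 2D (8.28 ± 0.10, SD of the control and gefitinib arrays, n = 2) through A549 3D (8.55 ± 0.16) and HCC827 2D (10.68 ± 0.39) to HCC827 3D (11.39 ± 0.39). The lines differed in each culture, by 2.39 ± 0.30 in 2D (adjusted p = 0.00951) and by 2.84 ± 0.30 in 3D (0.00543), whereas the neighbours in this order within a line did not pass the test of culture given further on. Among all tested genes, 28.8% were called between lines in 2D and 36.7% in 3D. Without both HCC827 2D arrays, the 3D difference of EGFR had an adjusted p of 2.43e-09, in a fit that called 69.0% of tested genes and took its error from A549 alone.

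Of the 6 tested EGFR probe sets, 2 (11725102_at and 11742247_a_at) lay above the array median on the 4 HCC827 arrays alone, so they passed the filter only where EGFR is high and had to differ. The other 4 were higher in HCC827, where 21.4% of 26781 tested probe sets were called higher. Among them 11733760_a_at differed by 0.93 ± 0.18 (adjusted p = 0.0153 over probe sets) and the remaining 3 by 2.06 to 2.62. The probe set 11733760_a_at is annotated to NM_201283.1 and 11742247_a_at to NM_201282.1, both records of shorter EGFR transcripts that encode forms of the receptor without the kinase domain. A further 2 EGFR probe sets, 11738815_at and 11762479_at, stayed below background on all 8 arrays and were not tested. Of the 4 tested ERBB2 probe sets, only 11750611_a_at was called between lines (0.37 ± 0.08, adjusted p = 0.0222 over probe sets), and not the chosen one. Of the 3 tested ERBB3 probe sets, only the chosen 11721445_x_at was called.

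ERBB3, the kinase-impaired partner, read 9.73 (control) and 9.81 (gefitinib) in A549 2D, and 10.01 and 10.21 in A549 3D. In HCC827 it was at 9.83 and 9.72 in the 2D arrays labelled control and gefitinib, and at 10.83 and 10.87 in the 3D control and gefitinib arrays. The 2D arrays of both lines thus overlapped. The difference between lines was 0.00 ± 0.13 in 2D (adjusted p = 0.986) and 0.74 ± 0.13 in 3D (0.0164). This 3D call of ERBB3 was lost with any 1 A549 array left out. Its probe sets 11747025_a_at (0.37 ± 0.14, adjusted p = 0.1125 over probe sets) and 11734393_at (0.23 ± 0.11, 0.172) did not pass in 3D. ERBB2 showed 0.08 ± 0.13 in 2D (0.690) and 0.54 ± 0.13 in 3D (0.0399). The ERBB2 call in 3D was lost with no filter (0.0564), once its probe sets were averaged (0.22, adjusted p = 0.117) and with any 1 A549 array left out (0.206 to 0.451). Whether the line difference itself changed with culture was tested as an interaction, which called none of the 5 genes and 0% of all tested genes. The interaction was 0.73 ± 0.18 for ERBB3 (adjusted p = 0.228, unadjusted 0.0129) and 0.46 ± 0.19 for ERBB2 (0.386, unadjusted 0.0674), and limma gave 1696 genes an unadjusted p under 0.05.

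LRIG1 read 7.98 (control) and 8.05 (gefitinib) in A549 2D, and 8.09 and 8.33 in A549 3D. In HCC827 it was at 7.14 and 6.97 in the 2D arrays labelled control and gefitinib, below the array median, and at 7.76 and 8.15 in the 3D control and gefitinib arrays. The HCC827 2D arrays were the lowest of the 8, and the 3D arrays of the 2 lines overlapped. The line difference was -0.95 ± 0.17 in 2D (adjusted p = 0.0215) and -0.26 ± 0.17 in 3D (0.304). The interaction was 0.70 ± 0.24 (0.327). Without both HCC827 2D arrays the 3D difference of -0.26 passed (0.0275), in the fit that called 69.0% of tested genes with its error from A549 alone. The 2D call was lost with any 1 A549 array left out, as were most calls of tested genes there.

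ERBB4, the second ligand-binding receptor of the 4 with an active kinase, lay between 6.51 and 6.76 on the 8 arrays. Its 3 probe sets were below the array median and below the mean of the background probe sets of the same array on 8 of 8 arrays, so it was not tested and no order of its levels is given. ERRFI1 ranged from 10.66 to 12.30, and its line difference of 0.46 ± 0.57 in 2D and -0.49 ± 0.57 in 3D did not pass (adjusted p = 0.592 and 0.548). Without both HCC827 2D arrays, the 3D difference of ERRFI1 was the same and passed, as did those of ERBB2 and ERBB3. That fit called 69.0% of tested genes and took its error from A549 alone.

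These calls depend on single arrays. Leaving out any 1 of the 4 A549 arrays takes the error from HCC827 alone: EGFR was then still called between lines (adjusted p from 0.0184 to 0.0218), ERBB3 was not (0.247 to 0.304), nor was LRIG1 (0.0968 to 0.127). These fits called 15.4% to 15.9% of all tested genes. The single-culture differences of EGFR were lost when an A549 array of that culture was left out, reaching adjusted p = 0.160 in 2D and 0.0965 in 3D, in fits that called 241 to 254 genes in 2D and 343 to 365 in 3D. Leaving out any 1 HCC827 array called all 5 genes, with ERRFI1 at -0.59 or 0.56 depending on the array, in fits that called 70.5% to 72.0% of all tested genes.

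The genes beside EGFR on chromosome 7 were read next. Of the 10 protein-coding genes on each side of EGFR in RefSeq order, 17 had a probe set of their own symbol and 11 were tested. Of these, 7 were higher and 1 lower in HCC827, where 48.1% of all tested genes were called in either direction, with a median of 0.59 against -0.03 for all tested genes. The next gene after EGFR, LANCL2, a relative of bacterial lanthionine synthetase components, was higher by 2.62 ± 0.13 (adjusted p = 0.000573). The one after that, VOPP1, which encodes a protein of intracellular vesicles, was higher by 2.05 ± 0.09 (0.000427). LANCL2 lay from 8.38 to 8.47 in A549 and from 10.70 to 11.30 in HCC827, and VOPP1 from 10.85 to 11.35 and from 12.83 to 13.39. Neither overlapped between lines, and 14.4% of tested genes were higher in HCC827 without overlap. On the other side, COBL, an actin nucleator 4 places away, was at -0.23 ± 0.09 (0.0941). Further out on that side, and named after their values were seen, DDC, an enzyme of dopamine and serotonin synthesis, was lower (-0.45 ± 0.07, 0.00815) and FIGNL1, an ATPase of DNA repair, was higher (1.24 ± 0.21, 0.0111). DNA copy number was not measured. Around ERBB2 on chromosome 17, 13 of 20 neighbours were tested, and 1 was higher and 1 lower in HCC827, with a median of -0.07. The lower one was MIEN1, the next gene after ERBB2, at -1.07 ± 0.14 (0.00578).

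**Figure D2:**
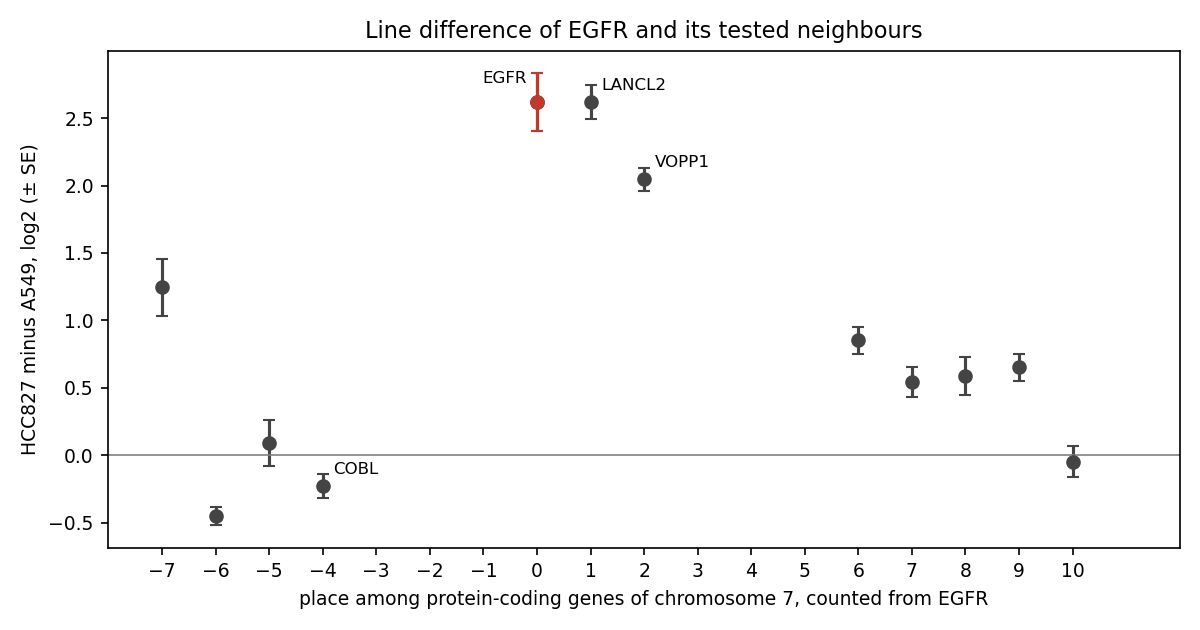
Difference between HCC827 and A549 (log2, limma estimate ± SE) for EGFR (red) and its 11 tested neighbours (grey), placed by gene order on chromosome 7 with EGFR at 0. Only EGFR and the tested genes within 4 places are named. EGFR and LANCL2 both stand at 2.62 and VOPP1 at 2.05. All 4 tested genes from the sixth to the ninth place after EGFR lie between 0.54 and 0.85, and the one in the tenth place lies at -0.05.

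The second comparison asked what the scaffold culture changes. ERBB2 was higher in 3D by 1.25 ± 0.10 as the mean over both lines (adjusted p = 0.00434), a 2.39-fold difference. ERBB3 was higher by 0.71 ± 0.09 (0.00742) and LRIG1 by 0.55 ± 0.12 (0.0240). EGFR stood at 0.48 ± 0.21 (0.130) and ERRFI1 at 0.30 ± 0.40 (0.560). With 3 of 5 genes called, all higher, the count stands beside 47.5% of tested genes called in either direction and 30.4% called higher. With the mean of a gene's probe sets, ERBB2 stood at 0.40 (adjusted p = 0.0101), ERBB3 at 0.28 (0.0339) and LRIG1 at 0.34 (0.0427). The actin 3' minus 5' measure shifted by 2.19 with culture, as given above. Its part in these differences was not tested.

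ERBB2 read 9.29 (control) and 9.45 (gefitinib) in A549 2D, and 10.33 and 10.46 in A549 3D. In HCC827, ERBB2 was at 9.51 and 9.39 in the 2D arrays labelled control and gefitinib, and at 10.87 and 11.01 in the 3D control and gefitinib arrays. Every 3D array lay above every 2D array, as it did for 19.1% of tested genes. ERBB2 differed by 1.02 ± 0.13 in A549 (adjusted p = 0.0203) and by 1.48 ± 0.13 in HCC827 (0.0108). It was the only one of the 5 called in A549, where 22.3% of tested genes were called and 16.3% were higher. ERBB2 in A549 did not pass when its probe sets were averaged (0.32, with an adjusted p of 0.0632). The pair means rose from A549 2D (9.37 ± 0.11, SD, n = 2) and HCC827 2D (9.45 ± 0.08) to A549 3D (10.39 ± 0.09) and HCC827 3D (10.94 ± 0.10). The line differences within each culture, and the settings that end the 3D call, are given above, and A549 3D was not tested against HCC827 2D.

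In HCC827, 3 of the 5 genes were higher in 3D, where 33.4% of tested genes were called and 19.7% were higher: ERBB2, ERBB3 by 1.07 ± 0.13 (adjusted p = 0.0124) and LRIG1 by 0.90 ± 0.17 (0.0242). In A549, ERBB3 stood at 0.34 ± 0.13 (0.127) and LRIG1 at 0.20 ± 0.17 (0.434). EGFR stood at 0.26 ± 0.30 in A549 (0.565) and at 0.71 ± 0.30 in HCC827 (0.141). ERRFI1 stood at 0.78 ± 0.57 in A549 (0.366) and at -0.17 ± 0.57 in HCC827 (0.837). For ERBB3, every 3D array lay above every 2D array, as it did for 19.1% of tested genes. LRIG1 did not separate the cultures, since the A549 2D arrays lay above the HCC827 3D control array.

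Leaving out any 1 A549 array ended every culture call: ERBB2 then had an adjusted p from 0.0800 to 0.0872, ERBB3 from 0.114 to 0.119 and LRIG1 from 0.136 to 0.161 for the mean over lines. These fits called 0 of all 11926 tested genes. Leaving out any 1 HCC827 array called 4 or 5 genes, beside 71.0% to 74.1% of all tested genes. Over these fits ERBB2 ran from 1.19 to 1.32, ERBB3 from 0.67 to 0.74 and LRIG1 from 0.41 to 0.69. Without both HCC827 2D arrays, the A549 culture difference was called for ERBB2 (1.02, adjusted p = 3.31e-06), ERBB3 (0.34, 0.00528), EGFR (0.26, 0.0438) and ERRFI1 (0.78, 8.37e-05), in a fit that called 64.1% of tested genes.

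Probe sets of the same gene did not move alike with culture. For ERBB2, 11736472_a_at (1.25 ± 0.10, adjusted p = 0.00224 over probe sets) and 11750611_a_at (1.02 ± 0.08, 0.00226) were higher in 3D. The other 2 tested ERBB2 probe sets, 11755005_a_at (-0.03 ± 0.09, 0.792) and 11762165_x_at (-0.08 ± 0.07, 0.412), did not pass. ERBB2 read from 11755005_a_at lay at 7.96 and 7.74 in the A549 3D arrays and 7.77 and 7.74 in the 2D ones, so the cultures overlapped there. The fifth, 11751416_a_at, was below the array median on all 8 arrays. Among all tested probe sets, 54.2% were called with culture, 30.3% in A549 and 42.4% in HCC827.

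For ERBB3, only 11721445_x_at was called (0.71 ± 0.10, adjusted p = 0.00522), and its suffix marks a probe set in which some probes can also match other sequences. The probe set 11734393_at, annotated to NM_001005915.1, a record of a short secreted form, stood at 0.18 ± 0.08 (0.111), and 11747025_a_at at -0.03 ± 0.10 (0.821).

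EGFR probe sets differed in sign. The probe set 11725104_a_at was higher in 3D by 1.17 ± 0.12 (adjusted p = 0.00293 over probe sets), and was called in A549 (1.08 ± 0.17, 0.0170) and in HCC827 (1.25 ± 0.17, 0.00822). In contrast, 11733760_a_at was lower in 3D, at -0.68 ± 0.18 (0.0330), and at -1.08 ± 0.26 in HCC827 (0.0303). In HCC827 it read 8.43 and 9.11 in the 2D arrays labelled control and gefitinib and 7.86 and 7.51 in the 3D control and gefitinib arrays. The remaining 4 tested EGFR probe sets, the chosen one among them, ran from -0.47 to 0.48 and did not pass.

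The difference between 2 probe sets of 1 gene on the same array was then set between cultures, for pairs chosen after the values were seen, so it is a description with no test. For ERBB2, 11755005_a_at fell by 1.28 relative to 11736472_a_at from 2D to 3D, 11762165_x_at fell by 1.33 and 11750611_a_at fell by 0.24. For ERBB3, 11747025_a_at fell by 0.73 and 11734393_at fell by 0.53 relative to 11721445_x_at. Most of these probe sets were low. Over the 8 arrays 11755005_a_at averaged 7.75, 11762165_x_at 7.33 and 11750611_a_at 8.60, beside 10.04 for 11736472_a_at. The ERBB3 ones averaged 7.71 and 7.57, beside 10.13 for 11721445_x_at. The array median ran from 7.27 to 7.34, and how far such low signals can respond was not tested. For EGFR, 11725104_a_at changed by 0.68 relative to 11725103_s_at. The others changed by -1.16 (11733760_a_at), -0.95 (11742247_a_at), -0.39 (11725102_at) and -0.08 (11751983_a_at) relative to the same probe set. The RNA integrity measure given above separated the 3D from the 2D arrays, and was further apart in HCC827 (actin 2.34 to 2.64 in 3D) than in A549 (1.67 to 1.74). Its part in the probe set differences was not tested, and the positions of the probes along the transcripts were not used here.

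**Figure D3:**
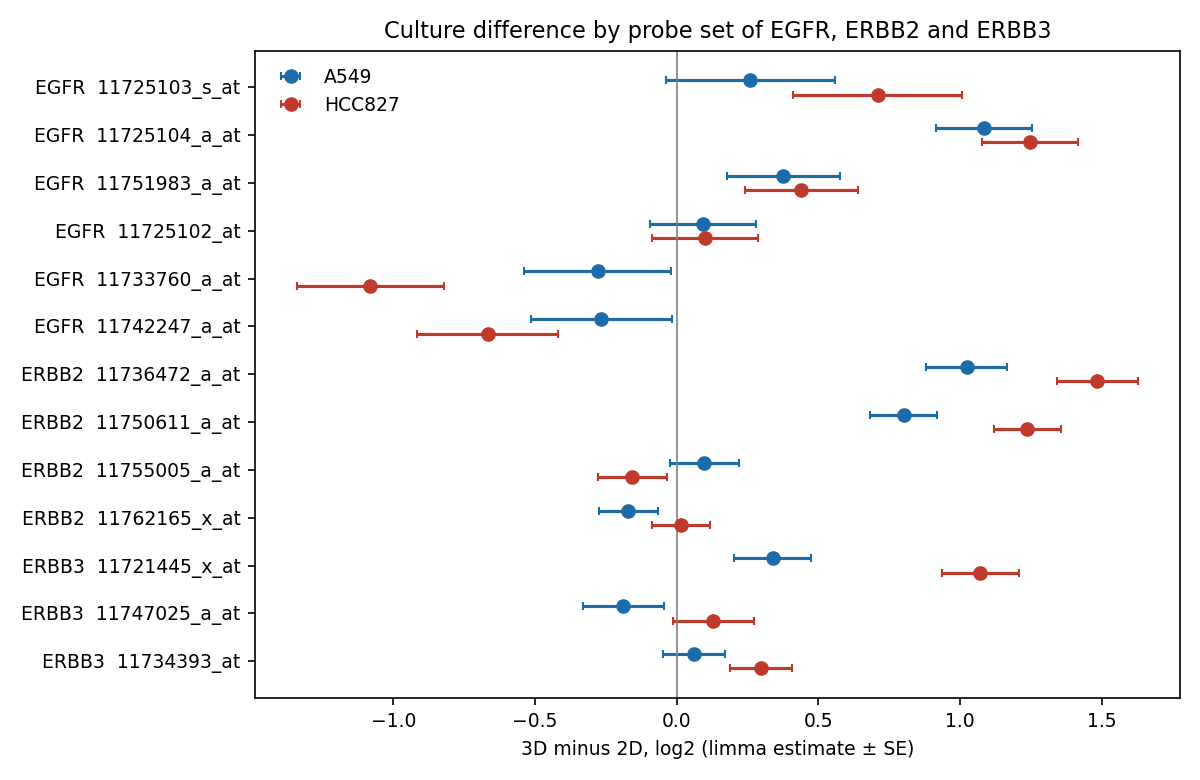
Difference between 3D and 2D (log2, limma estimate ± SE) in A549 (blue) and HCC827 (red) for every tested probe set of EGFR, ERBB2 and ERBB3. Within ERBB2, 11736472_a_at stands at 1.02 and 1.48 while 11755005_a_at stands at 0.10 and -0.16, and within EGFR the estimates in HCC827 run from -1.08 to 1.25.

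The third comparison asked how gefitinib acted on these genes. In HCC827 3D, ERRFI1 was at 12.30 in the control and 10.66 with gefitinib, a difference of -1.64 (3.12-fold lower). EGFR was at 11.66 and 11.12, a difference of -0.55. LRIG1 was at 7.76 and 8.15, a difference of 0.38. ERBB2 and ERBB3 differed by 0.14 and 0.04. Each is 1 array against 1 array, with no replicate check. Over all tested genes the same difference had an SD of 0.42, and 3.15% of genes lay at or below -1 and 12.9% at or below -0.5.

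In HCC827 2D, as labelled, EGFR stood at 0.56 and ERRFI1 at 0.65, opposite in sign to the 3D pair. LRIG1 stood at -0.17, and ERBB2 and ERBB3 both at -0.11, beside an SD of 0.43 over all tested genes. ERRFI1 was at 11.32 in the array labelled control and 11.97 in the one labelled gefitinib. Of the 6 tested EGFR probe sets, 6 were above 0 in this pair (0.19 to 0.68) and 6 were below 0 in the 3D pair (-0.55 to -0.20). EGFR and ERRFI1 were 2 of the 545 genes (4.57% of those tested) at or below -0.5 in HCC827 3D and at or above 0.5 in HCC827 2D. The ERK output genes moved the same way, as given above.

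In A549 the differences were smaller. EGFR differed by 0.15 in 2D and -0.22 in 3D, ERRFI1 by 0.07 and -0.27, LRIG1 by 0.07 and 0.25, ERBB2 by 0.16 and 0.12, and ERBB3 by 0.08 and 0.19. Over all tested genes the SD was 0.16 in 2D and 0.17 in 3D. None of the 5 genes reached 0.5 in either direction in A549, where at most 0.671% of genes did on either side.

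**Figure D4:**
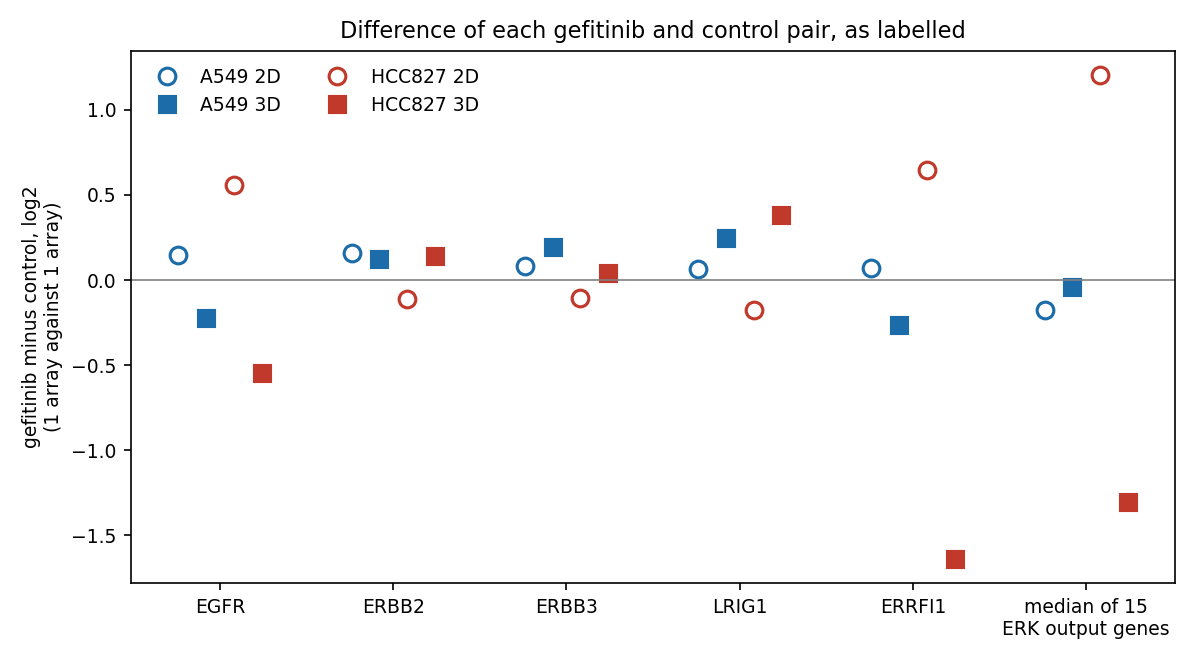
Gefitinib minus control (log2, 1 array against 1 array, as labelled) for the 5 tested genes and the median of the 15 ERK output genes (blue A549, red HCC827, open circles 2D, filled squares 3D). ERRFI1 stands at -1.64 in HCC827 3D and 0.65 in HCC827 2D, and the ERK output median at -1.31 and 1.21.

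The limma fit over all 8 arrays called no gene for gefitinib in A549, in HCC827 or in their difference (0% of tested genes each), with 86, 487 and 348 genes at an unadjusted p under 0.05 and 0 of the 5 genes among them. The HCC827 estimate averages opposite pairs, so it was refitted without both HCC827 2D arrays. In the refit, the HCC827 estimate is the 3D pair alone and the A549 estimate is the mean of its 2D and 3D pairs. Its difference between the lines thus sets 3D alone against both cultures, and A549 3D alone was not tested against HCC827 3D. That fit has 1 residual degree of freedom, takes its error from A549 and assumes that HCC827 varies alike. It called 3 of the 5 genes in HCC827 3D, beside 27.2% of tested genes. ERRFI1 was lower (-1.64 ± 0.15, adjusted p = 4.33e-05), EGFR was lower (-0.55 ± 0.14, 0.0188) and LRIG1 was higher (0.38 ± 0.13, 0.0490). ERBB2 had an adjusted p of 0.409 and ERBB3 of 0.827. The difference from A549 itself passed for ERRFI1 (-1.54 ± 0.18, 0.000448), beside 20.5% of tested genes, and did not for EGFR (-0.51 ± 0.18, 0.0665) or LRIG1 (0.23 ± 0.16, 0.339). With the HCC827 3D control or gefitinib array left out instead, the estimate rests on the 2D pair: EGFR stood at 0.56 and ERRFI1 at 0.65, both past the threshold in the other direction, beside 22.4% of tested genes.

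The other genes of the pathway were read from 5 lists over all 8 arrays. Of 6 tested ligand genes, 1 was higher and 2 were lower in HCC827, beside 48.1% of all tested genes called in either direction between lines and 47.5% between cultures: BTC, an EGFR and ERBB4 ligand, by 0.41 ± 0.06 (adjusted p = 0.00905), NRG4, an ERBB4 ligand, at -0.96 ± 0.07 (0.00123), and NRG1, an ERBB3 and ERBB4 ligand, at -0.95 ± 0.12 (0.00470). The ligands' median was 0.20, beside -0.03 for all tested genes. NRG1 was also lower in 3D, at -1.13 ± 0.12 (0.00523), and was the only ligand of the 6 called with culture.

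Of 20 adaptors and kinases that act next to the receptors, 4 were higher and 7 lower in HCC827 (median -0.01), beside 48.1% of all tested genes called. The lower ones included the kinase SRC (-1.39 ± 0.11, adjusted p = 0.00154), the adaptor SHC1 (-1.16 ± 0.10, 0.00196) and the kinase AKT2 (-0.87 ± 0.13, 0.00828). In 3D, 10 of the 20 were higher and 4 lower, 14 in all beside the same 47.5% (median 0.32 beside 0.12 for all tested genes). The phosphatase PTPN11 was lower (-1.49 ± 0.09, 0.00419), as was the adaptor NCK1 (-0.95 ± 0.10, 0.00513), and SRC was higher (1.13 ± 0.11, 0.00492).

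Of 20 genes of receptor turnover and other negative regulators, 8 were higher and 5 lower in HCC827 (median 0.37), beside 48.1% of all tested genes called. The higher ones included the ubiquitin ligase CBLC (1.42 ± 0.07, adjusted p = 0.000544), the endocytic scaffold CD2AP (1.14 ± 0.17, 0.00841) and the receptor phosphatase PTPRK (1.00 ± 0.21, 0.0212). In 3D, 5 were higher and 4 lower (median -0.18), beside 47.5% of all tested genes called, a share against which this count does not stand out. TNK2, a kinase of receptor trafficking, was higher (1.03 ± 0.10, 0.00510), as was the ubiquitin ligase CBLB (0.98 ± 0.22, 0.0265), and the ubiquitin ligase ITCH was lower (-0.71 ± 0.17, 0.0283).

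Of the 15 ERK output genes, 1 was higher and 2 were lower in HCC827, beside 48.1% of all tested genes called. The ERK phosphatase DUSP4 was lower (-3.20 ± 0.31, adjusted p = 0.00268), as was the transcription factor ETV4 (-1.73 ± 0.46, 0.0372), and the immediate early gene EGR1 was higher (2.23 ± 0.65, 0.0488). None of the 15 was called between cultures. Of 17 FOXO target and PI3K feedback genes, 7 were higher and 4 lower in HCC827, beside the same 48.1%. The adaptor IRS2 was lower (-2.71 ± 0.17, 0.000967), and GADD45A (2.35 ± 0.25, 0.00339) and TXNIP (1.90 ± 0.15, 0.00173), genes of stress and redox control, were higher. In 3D, 7 were higher and 2 lower, beside 47.5% of all tested genes called. The insulin receptor INSR was higher (1.84 ± 0.08, 0.00419), as was TXNIP (1.08 ± 0.15, 0.00915), and GADD45A was lower (-0.97 ± 0.25, 0.0375). No gene of the 5 lists was called for gefitinib in the fit over all 8 arrays.

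The genes whose pattern over the 8 arrays was most like each tested gene were found by the root mean square difference after subtracting each gene's own mean, over 8 arrays. For EGFR these were LANCL2, its chromosomal neighbour (0.21), ESRP2 (0.23) and KRTCAP3 (0.25), where the median over all tested genes was 1.38. For ERBB2 they were DIPK1B (0.075), LIME1 (0.078) and TMEM63B (0.079), beside a median of 0.71. For ERBB3 they were C6orf89 (0.056), PKP4 (0.082) and RTEL1 (0.088), beside a median of 0.55. For LRIG1 they were PELI2 (0.10), SLC9A8 (0.11) and SCN9A (0.13), beside a median of 0.56. For ERRFI1 they were TPI1 (0.17), ANKRD37 (0.19) and TLCD3A (0.22), beside a median of 0.62. TPI1 fell from 13.93 in the HCC827 3D control to 12.59 with gefitinib, and ANKRD37 from 8.33 to 7.13, in the same arrays in which ERRFI1 went from 12.30 to 10.66. Both genes were chosen for likeness on these same arrays, so their fall there is not separate evidence.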

How the data were processed

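RNA of 8 samples, 100 ng each, was amplified, biotin-labelled and hybridised to 3' expression arrays, per the labels' protocols. The authors deposited log2 signals. The submitters' processing notes name RMA and R 3.2.1. RMA gives all arrays of a set nearly the same distribution, so a shift shared by all genes would not be seen. The probe set definitions and the genome build were not given in the sources used here.

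The table held 49495 probe sets, of which 45278 had 1 gene symbol in the platform annotation (102 control probe sets, 1333 with several symbols and 2782 not listed were left out). Limma 3.58.1 in R 4.3.3 fitted 6 coefficients (line, culture, treatment, line by culture, line by treatment and a mean) to the 11926 genes above the array median on 2 arrays, with a variance trend (2 residual and 2.36 prior degrees of freedom). It was tested on simulated data. The 10 contrasts were each adjusted by Benjamini-Hochberg, and 26781 probe sets were fitted alike.

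The members and the gene lists were chosen with earlier results of these data known. By rule, the text names the 6 members, the probe sets of EGFR, ERBB2 and ERBB3, the 3 genes most like each tested member, at most 3 genes per list and contrast, and neighbours up to 4 places away. Normalization, filter, variance prior, probe set choice, model and left-out arrays were varied, with the effects given at the end. RefSeq promoters (GRCh38.p14) were searched for 5 motifs.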

Additional observations from a re-analysis of the deposited data

Results flagged for a closer look

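EGFR and ERRFI1 moved in opposite directions in the 2 HCC827 pairs. EGFR differed between gefitinib and control by -0.55 in HCC827 3D and by 0.56 in HCC827 2D, as labelled. ERRFI1 differed by -1.64 in HCC827 3D and by 0.65 in HCC827 2D. With 1 array per condition the difference between the cultures was not tested. The ERK output genes had the same opposition (medians of -1.31 and 1.21), and whether the 2 labels of the HCC827 2D arrays are exchanged was not tested.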

How the results depend on the processing

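The alternatives were run on the members' values and not on the gene lists, neighbours or nearest patterns. No paired analysis was possible because the labels give no replicate numbers to block on. Against 3 genes called between lines, the untreated arrays alone and the gefitinib arrays alone each called 1, beside 2166 and 2082 of 11926 genes. Against 3 called between cultures, they called 0 and 0, beside 0 genes in all. Between lines, the mean of probe sets and the additive model called 2, beside 52.0% and 48.2% of all genes tested in each. Cyclic loess and no variance trend called 4, beside 48.3% and 48.1%. Between lines in 3D, the mean of probe sets and no filter called 2, beside 39.0% and 25.5%. Without both HCC827 2D arrays, 5 genes instead of 3 were called between lines in 3D, beside 69.0% of all tested genes. Between cultures in A549, that fit called 4 instead of 1, beside 64.1%. Its gefitinib calls, with 1 HCC827 array per treatment, are given with their shares above. The mean of a gene's probe sets called 0 in A549 culture, beside 25.8% of all genes tested there. The sign turned for ERRFI1 between lines (0.15 with cyclic loess, 0.18 in untreated arrays), between cultures (-0.35 in gefitinib arrays) and between cultures in HCC827 (0.036 with cyclic loess). It also turned for EGFR in the line by culture interaction (-0.018 with the mean of probe sets), and for gefitinib in HCC827 for ERBB2 (-0.041 with the mean of probe sets), ERBB3 (0.10 with cyclic loess, 0.042 without both HCC827 2D arrays) and EGFR (-0.55 without both). None of these values was called in the fit over all arrays, and the cause was not tested.

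With 1 array left out, 1 to 5 of the 5 genes were called between lines, beside 15.4% to 72.0% of all tested genes. Between cultures 0 to 5 were called, beside 0% to 74.1%. Counts within a line or culture, for gefitinib and for the interactions rest on a lone array in an arm, so only effect sizes follow for them. ERRFI1 ran from -0.59 to 0.56 between lines, -0.69 to 1.60 in 2D, -1.63 to 0.66 in 3D, -0.27 to 0.88 between cultures, -1.31 to 0.98 in HCC827, -2.09 to 0.20 for line by culture and -1.64 to 0.65 for gefitinib in HCC827. EGFR ran from -0.10 to 1.00 for line by culture and -0.55 to 0.56 for gefitinib in HCC827. ERBB2 ran from -0.047 to 0.21 between lines in 2D and -0.11 to 0.14 for gefitinib. ERBB3 ran from -0.07 to 0.077 and -0.11 to 0.042 likewise. LRIG1 ran from -0.53 to 0.024 between lines in 3D and -0.17 to 0.38 for gefitinib. The lone array of an arm is then assumed to vary like the other line. Between lines, EGFR was called in every setting run, from 1.41 with the mean of probe sets to 2.89.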
